A study of Gossypium herbaceum with 12 samples.

Results

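Aquaporins are membrane channels that let water, and in some members small uncharged solutes, pass along a gradient. The plasma membrane intrinsic proteins (PIPs) form the aquaporin branch of the outer cell membrane in plants. They are split into the PIP1 and PIP2 subgroups: PIP2 proteins are efficient water channels on their own, and PIP1 proteins of several species reach the membrane together with a PIP2 partner. In leaves they carry water between the veins, the mesophyll and the stomata, and their transcript levels are known to change under drought in many species, in either direction. Here 12 aquaporin probe sets of this kind were described in the leaves of Levant cotton, Gossypium herbaceum, out of 24132 on the array and 1712 that the study annotated in its lists of accession-dependent genes.

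A probe set was included when its annotation in those lists contained plasma membrane intrinsic, PIP with a number, water channel or aquaporin, and not tonoplast. Of the 12, 10 bore the name plasma membrane intrinsic protein. The other 2 were aquaporins of other kinds: a small and basic intrinsic protein, SIP1A, whose Arabidopsis namesake lies in the endoplasmic reticulum, and an arsenite and boron transporter with water channel activity. The names are the best Arabidopsis matches, so they give a subgroup rather than a cotton gene. GhiAffx.10920.1.S1_s_at and GhiAffx.10920.2.S1_at, both named PIP2, carried the same cotton locus in the platform annotation. The 7 probe sets whose IDs end in _s_at and the 1 in _x_at can bind several near-identical transcripts, so they were not assigned to single genes.

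The plants were 1 month old and grown in earthen pots in a greenhouse, and each array held leaf RNA of 1 plant. The 4 groups of 3 plants were the drought-tolerant accession Vagad under drought and irrigated, and the drought-sensitive accession RAHS-14 under drought and irrigated, where drought was imposed by withholding water. The sample titles say tolerant or sensitive, and the study's methods name the accessions. The study listed a probe set when it differed at least 2-fold between the accessions, in irrigated plants (4 of the 12), under drought (2) or in both (6). The members were thus chosen by their measured accession differences, in values made with another method (RMA) that are not analysed here. The accession difference a probe set was listed for is therefore given below as a description with no test. The fold changes that the study reported with its lists are not used here.

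Vagad drought plants 1 and 2 gave brighter arrays than any other plant, with a median signal over all probe sets of 323 and 346 where the remaining 10 had 61.4 to 74.7. Their median rank correlations with the 10 were 0.594 and 0.438, against 0.944 to 0.957. Tag controls, which match no cotton transcript, reached a median of 89.0 and 96.7 there, against 1.36 to 7.43 elsewhere. Signals of these plants are therefore named separately, and results that use them are given over 12 arrays and over the 10 without them. Signals per plant are as deposited, and a statement on overlap is of deposited signals unless normalized signals are named; the fits used normalized signals. Over 10 arrays, Vagad drought plant 3 is alone in its group and is assumed to vary like the others. A probe set was called when limma's p-value, adjusted over all probe sets tested, was under 0.05 and the fold was at least 2. All 12 passed the filter on dim probe sets, which kept 12883 probe sets over 12 arrays and 12613 over 10. The spread that limma shares among probe sets was 0.522 over 12 arrays and 0.131 over 10, so the wider intervals over 12 arrays hold for every comparison, those without Vagad drought plants included. Terms for checking the leaf label (chlorophyll a/b binding, photosystem and Rubisco proteins) were searched only among the 1712 probe sets of the study's lists. There 1 probe set matched, the D1 protein of photosystem II, which had signals of 115 to 378 on the 10 arrays. The search missed a probe set of the same lists for the D2 protein of photosystem II, whose annotation is abbreviated as PSII. It does not show how many leaf markers the lists or the whole array hold.

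**Figure D1:**
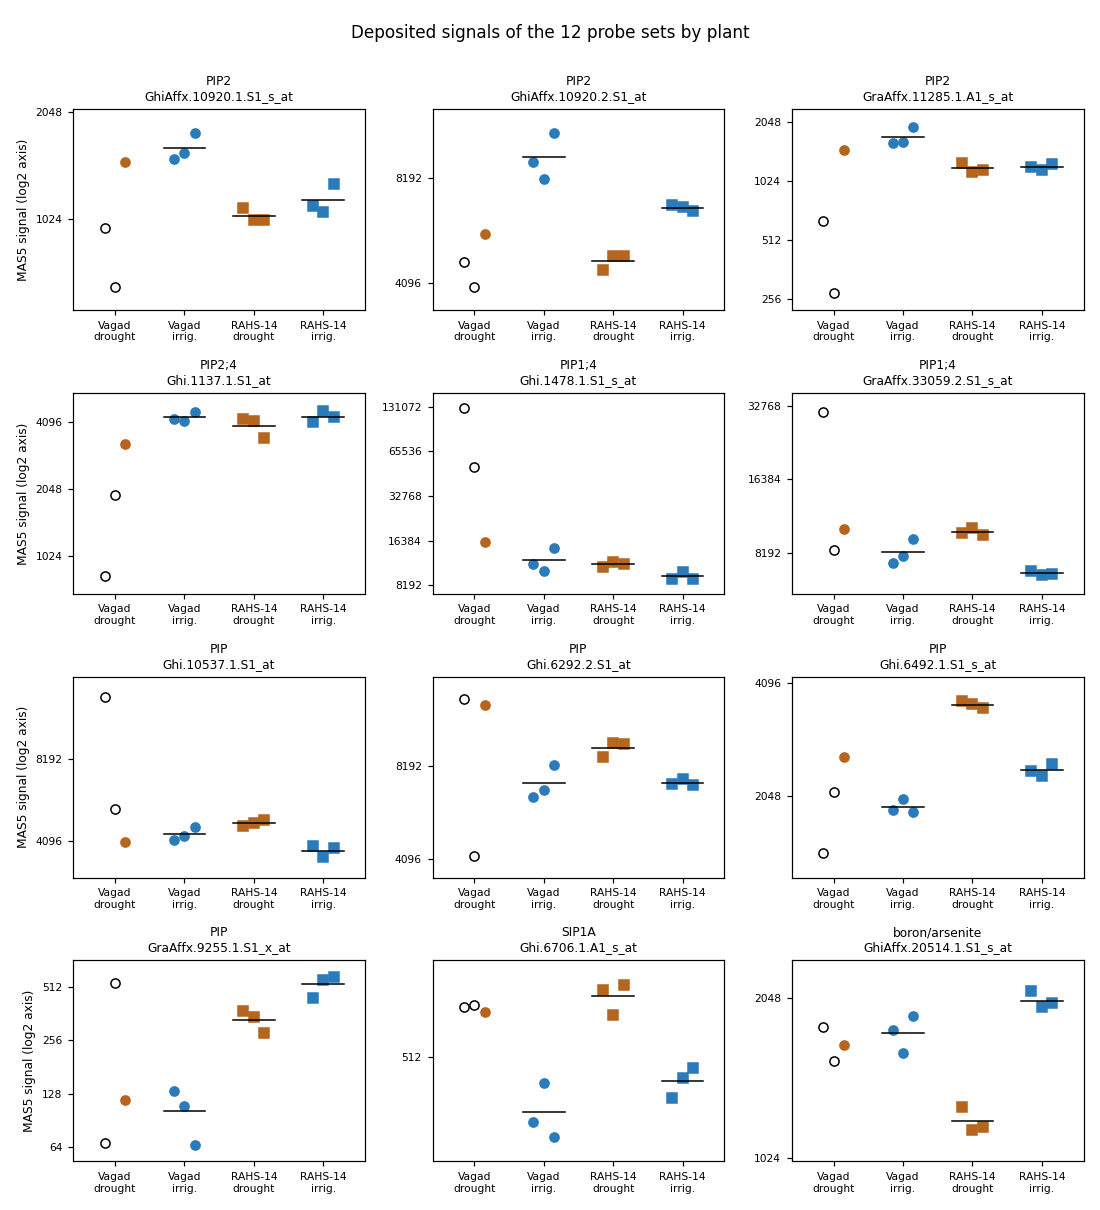
Deposited MAS5 signal of each probe set (vertical log2 axis, arbitrary units) in every plant, by group; open black circles are Vagad drought plants 1 and 2, other circles are Vagad, squares are RAHS-14, brown is drought and blue is irrigated. Horizontal lines are means of 3 plants and are not drawn for Vagad under drought; in several panels the open circles lie far from Vagad drought plant 3, as for GraAffx.11285.1.A1_s_at, where they are 636 and 276 against 1470.

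On the 10 arrays, leaf aquaporins were both higher and lower under drought, by less than 2-fold. With both accessions averaged, SIP1A, PIP Ghi.6492.1.S1_s_at, PIP Ghi.6292.2.S1_at and PIP1;4 GraAffx.33059.2.S1_s_at were higher under drought, and PIP2 GhiAffx.10920.2.S1_at, the boron and arsenite transporter and PIP2;4 were lower, at an adjusted p under 0.05 alone. These were 4 higher and 3 lower of 12, where 42.1% of all 12613 probe sets passed the same limit in either direction. Over 12 arrays the same limit left 1 of 12, GhiAffx.10920.2.S1_at, against 3.64% of all. With the fold of at least 2, no aquaporin was called in this mean response over 12 or 10 arrays, against 2.88% and 6.76% of all probe sets; over 12 arrays 5 had an unadjusted p under 0.05, 4 of them higher. The median response of the 12 was 0.09 on the log2 scale over 12 arrays, against -0.33 for all probe sets, and -0.01 over 10 arrays, against -0.0049. Scaling the 12 arrays to a common median without quantile normalization put the median mean response of all probe sets at -0.95 and turned Ghi.6492.1.S1_s_at to -0.53, Ghi.6292.2.S1_at to -0.49 and GraAffx.33059.2.S1_s_at to -0.19, with SIP1A at 0.0073. All drought responses use the arrays from which the members were listed. Over the equal groups of the 12 arrays, the mean of both responses gives no weight to the difference between the accessions. Over 10 arrays, with 1 Vagad drought array, the groups are unequal and this does not hold. The p-values of the mean response over 10 arrays are therefore not independent of the choice of members. The response within 1 accession shares its groups with the accession differences that chose the members, which can favour a direction. Its p-values are also not independent of that choice. The boron and arsenite transporter fell in RAHS-14, where its listing favours low drought values, with a change of -0.068 in Vagad over 10 arrays. The lower mean response of the transporter is therefore not taken as a test. In whole leaves, fewer cells of a type and less RNA per cell cannot be told apart.

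A PIP2, of the subgroup of efficient water channels, was lower under drought in both accessions. GhiAffx.10920.2.S1_at had signals of 4711 and 3987 in Vagad drought plants 1 and 2 and 5665 in plant 3, against 9116, 8152 and 11100 in irrigated Vagad. In RAHS-14 it had 4456, 4883 and 4890 under drought, against 6852, 6786 and 6579 in irrigated plants. Within each accession the drought plants lay below the irrigated ones, in deposited and in normalized signals. Across accessions all 6 drought plants lay below all 6 irrigated plants as deposited, but in normalized signals Vagad drought plant 2, at 6592, lay above irrigated RAHS-14 plant 2, at 6573. The mean drought response was -0.66 on the log2 scale over 12 arrays (standard error 0.153, limma's adjusted p = 0.047), a fold of 0.635, and -0.70 over 10 arrays (standard error 0.0694, limma's adjusted p = 9.01e-05). Over 12 arrays the adjusted p was 0.123 with a replicate block, 0.302 with array weights, 0.0631 with arrays aligned at their medians, and 0.116 to 0.148 without any 1 of the 9 arrays other than Vagad under drought. Within RAHS-14 the change was -0.63 over 12 arrays (limma's adjusted p = 0.465) and -0.59 over 10 (limma's adjusted p = 0.000551). Within Vagad it was -0.68 over 12 arrays (limma's adjusted p = 0.0731) and -0.81 over 10. The probe set was listed as higher in irrigated Vagad, which favours a lower value under drought there.

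The other probe set of this locus, GhiAffx.10920.1.S1_s_at, did not pass the limit in either accession. It had 963 and 657 in Vagad drought plants 1 and 2 and 1483 in plant 3, against 1513, 1570 and 1792 in irrigated Vagad. RAHS-14 had 1096, 1012 and 1012 under drought, against 1112, 1070 and 1283 in irrigated plants, and these groups overlapped. The change in RAHS-14 was -0.14 over 10 arrays, with a 95% interval of -0.366 to 0.087, and the change in Vagad -0.12, with an interval of -0.438 to 0.203. Over 12 arrays the Vagad change was -0.80 (limma's adjusted p = 0.16). Whether both probe sets of the locus respond differently was not tested.

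GraAffx.11285.1.A1_s_at, another PIP2, had 636 and 276 in Vagad drought plants 1 and 2 and 1470 in plant 3, against 1594, 1615 and 1931 in irrigated Vagad. RAHS-14 had 1262, 1136 and 1167 under drought, against 1196, 1162 and 1240 in irrigated plants. The RAHS-14 groups overlapped, and the 95% interval of the change over 10 arrays was -0.216 to 0.207. The large change in Vagad rested on plants 1 and 2. It was -2.03 on the log2 scale over 12 arrays (standard error 0.797, limma's adjusted p = 0.101) and -0.21 over 10 (standard error 0.131, limma's adjusted p = 0.258).

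PIP2;4, a further water channel of this subgroup (Ghi.1137.1.S1_at), had 831 and 1928 in Vagad drought plants 1 and 2 and 3255 in plant 3, against 4230, 4153 and 4549 in irrigated Vagad. RAHS-14 had 4220, 4143 and 3471 under drought, against 4110, 4592 and 4332 in irrigated plants. Vagad drought plants all lay below irrigated Vagad, while the RAHS-14 groups overlapped. The Vagad change was -0.93 over 12 arrays (limma's adjusted p = 0.15) and -0.40 over 10 (standard error 0.131). PIP2;4 was listed as higher in irrigated Vagad, which favours such a fall. The RAHS-14 change was -0.18 in both, with a 95% interval of -0.389 to 0.0315 over 10 arrays.

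The PIP1 subgroup was represented by a pair of PIP1;4 probe sets. GraAffx.33059.2.S1_s_at had 30826 and 8405 in Vagad drought plants 1 and 2 and 10276 in plant 3, against 7471, 7973 and 9320 in irrigated Vagad. In RAHS-14 it had 9897, 10365 and 9718 under drought, against 6893, 6669 and 6732 in irrigated plants. The RAHS-14 groups did not overlap. The Vagad groups overlapped as deposited, but not in normalized signals, with 15800, 10970 and 8490 under drought against 7240, 8123 and 8284 in irrigated Vagad. The RAHS-14 change was 0.50 on the log2 scale over 10 arrays (standard error 0.0795, limma's adjusted p = 0.00145). Over 12 arrays it was 0.56 (limma's adjusted p = 0.906). In Vagad the change over 10 arrays was 0.10, with a 95% interval of -0.158 to 0.355, and over 12 arrays 0.53 (limma's adjusted p = 0.163).

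The other PIP1;4, Ghi.1478.1.S1_s_at, had its highest signals on the arrays that stood apart. It had 127624 and 51726 in Vagad drought plants 1 and 2 and 16124 in plant 3, against 11388, 10188 and 14725 in irrigated Vagad. RAHS-14 had 10850, 11834 and 11354 under drought, against 9103, 10104 and 9093 in irrigated plants. The drought plants lay above the irrigated ones in RAHS-14. In Vagad they did so only as deposited: in normalized signals plant 3 had 12990 under drought, against 13780 in irrigated plant 3. The Vagad change was 0.96 over 12 arrays (limma's adjusted p = 0.0835) and 0.08 over 10 (limma's adjusted p = 0.633), and the RAHS-14 change was 0.21 over 12 arrays (limma's adjusted p = 1.0) and 0.18 over 10 (limma's adjusted p = 0.113).

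Of the PIPs named without a subgroup, 2 were higher under drought in both accessions over 10 arrays. Ghi.6492.1.S1_s_at had 1447 and 2102 in Vagad drought plants 1 and 2 and 2604 in plant 3, against 1885, 2008 and 1862 in irrigated Vagad. In RAHS-14 it had 3659, 3597 and 3503 under drought, against 2395, 2316 and 2497 in irrigated plants, without overlap. Its mean drought response was 0.50 over 10 arrays (standard error 0.0576, limma's adjusted p = 0.000216), with 0.58 in RAHS-14 and 0.42 in Vagad, and 0.54 over 12 arrays (limma's adjusted p = 0.147). Ghi.6292.2.S1_at had 13537 and 4200 in Vagad drought plants 1 and 2 and 12910 in plant 3, against 6512, 6870 and 8276 in irrigated Vagad. RAHS-14 had 8786, 9722 and 9670 under drought, against 7162, 7411 and 7121 in irrigated plants. The mean drought response of Ghi.6292.2.S1_at was 0.42 over 10 arrays (standard error 0.0685, limma's adjusted p = 0.00149) and 0.36 over 12 (limma's adjusted p = 0.237). In normalized signals Vagad drought plants 1, 2 and 3 had 10410, 6795 and 10530, against 6209, 6745 and 7392 in irrigated Vagad, so plant 2 lay among the irrigated plants.

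Ghi.10537.1.S1_at had 13740 and 5393 in Vagad drought plants 1 and 2 and 4089 in plant 3, against 4129, 4278 and 4640 in irrigated Vagad. RAHS-14 had 4661, 4785 and 4900 under drought, against 3930, 3591 and 3861 in irrigated plants. The RAHS-14 groups did not overlap, while those of Vagad did. The RAHS-14 change was 0.30 over 10 arrays (standard error 0.0725, limma's adjusted p = 0.0122), and also 0.30 over 12 (limma's adjusted p = 1.0). Ghi.10537.1.S1_at was listed as higher in irrigated Vagad, which favours low irrigated RAHS-14 values and so a rise in RAHS-14. In Vagad the direction of its change turned with the arrays used: 0.77 over 12 and -0.13 over 10. The last PIP, GraAffx.9255.1.S1_x_at, had 67.2 and 535 in Vagad drought plants 1 and 2 and 118 in plant 3, against 133, 109 and 65.9 in irrigated Vagad. RAHS-14 had 372, 344 and 281 under drought, against 439, 560 and 580 in irrigated plants. GraAffx.9255.1.S1_x_at was listed as higher in Vagad under drought, which favours low values in RAHS-14 drought plants. RAHS-14 drought plants lay below the irrigated ones, with a change of -0.63 over 10 arrays (standard error 0.225, limma's adjusted p = 0.0564) and -0.54 over 12 (limma's adjusted p = 1.0), and the Vagad groups overlapped.

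SIP1A, the small basic aquaporin (Ghi.6706.1.A1_s_at), had a higher deposited signal in every drought plant. It had 698 and 708 in Vagad drought plants 1 and 2 and 674 in plant 3, against 342, 434 and 311 in irrigated Vagad. In RAHS-14 it had 773, 662 and 801 under drought, against 395, 449 and 478 in irrigated plants. All 6 drought plants lay above all 6 irrigated plants as deposited. Vagad drought plants 1 and 2 are the bright arrays. With the 12 arrays aligned at their medians, the Vagad change of SIP1A was -0.70 on the log2 scale, in the other direction. Its mean drought response was 0.68 over 12 arrays (standard error 0.166, limma's adjusted p = 0.056) and 0.88 over 10 (standard error 0.115, limma's adjusted p = 0.000444). The Vagad change over 10 arrays, 0.98 or a fold of 1.97, was just under the fold of 2 (limma's adjusted p = 0.00593), and the RAHS-14 change was 0.79 (limma's adjusted p = 0.00193).

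The boron and arsenite transporter (GhiAffx.20514.1.S1_s_at) had 1802 and 1557 in Vagad drought plants 1 and 2 and 1671 in plant 3, against 1779, 1615 and 1892 in irrigated Vagad, and these groups overlapped. In RAHS-14 it had 1274, 1153 and 1172 under drought, against 2106, 1966 and 2001 in irrigated plants, without overlap. The RAHS-14 change was -0.76 over 10 arrays (standard error 0.085) and -0.72 over 12 (standard error 0.243). It is given with no p-value, and the passes of this probe set in the counts above and below are not taken as tests. The probe set was listed as higher in Vagad under drought, which favours a low value in RAHS-14 drought plants. In Vagad it was -0.068 over 10 arrays, with a 95% interval of -0.342 to 0.206, and 0.36 over 12. The difference between the drought responses of the accessions equals the difference of both accession contrasts the probe set was listed for, so it was not tested.

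**Figure D2:**
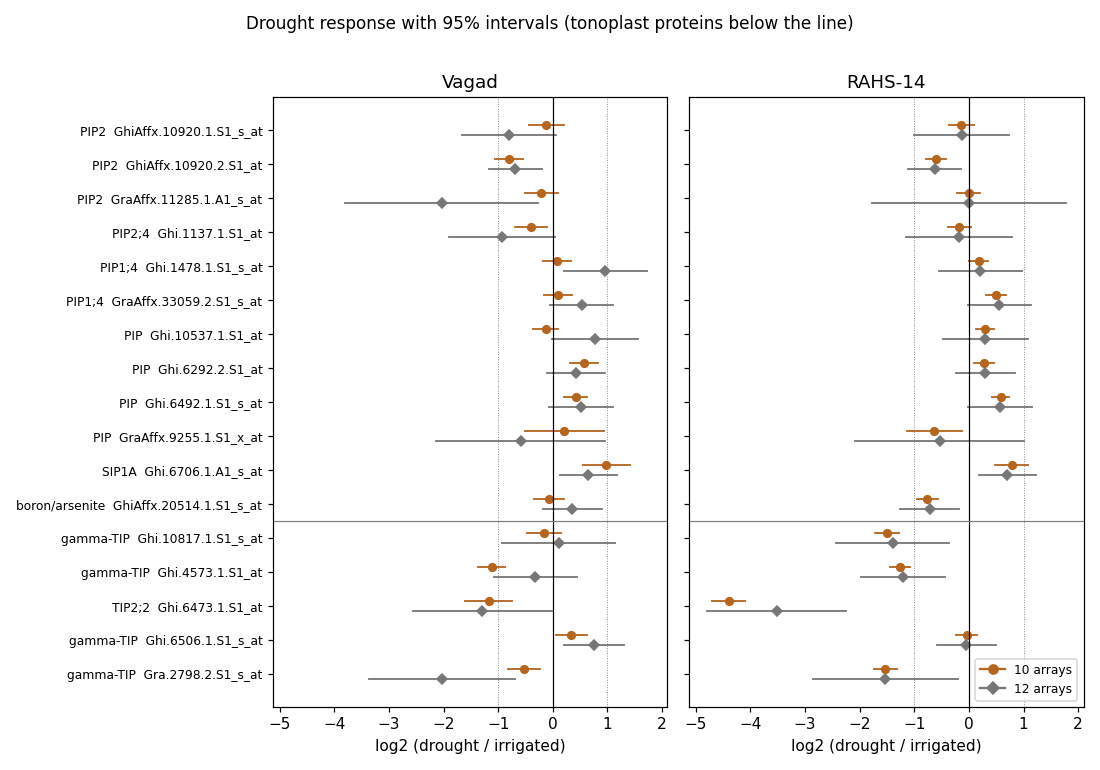
Log2 ratio of drought to irrigated plants (horizontal axis) for the 12 probe sets and, below the line, 5 tonoplast aquaporins, in Vagad (left) and RAHS-14 (right); points are limma estimates with 95% intervals, brown over 10 arrays and grey over 12, and dotted lines mark a fold of 2. The intervals of the 12 over 10 arrays are narrower than over 12 arrays, and their estimates lie between -0.81 and 0.98 in Vagad and between -0.76 and 0.79 in RAHS-14.

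Counted by accession, the drought response of RAHS-14 included 5 aquaporins that were higher and 2 that were lower at an adjusted p under 0.05 alone over 10 arrays, where 36.8% of all probe sets passed. The deposited signals of 6 were higher and of 3 lower under drought without overlap, and 3 overlapped, where 52.9% of all probe sets did not overlap. None of the 12 was called with the fold of at least 2, over 12 or 10 arrays, against 0.885% and 8.09% of all; at an unadjusted p under 0.05 over 12 arrays, 1 was higher and 2 were lower. The methods' t-test, adjusted and with the same fold, called 0 of 12, against 5.53% of all. The control transcripts had a log2 ratio of 3′ to 5′ signal of 1.33 to 1.75 in RAHS-14 under drought and 1.80 to 2.05 in irrigated RAHS-14. The D1 marker had 357 to 378 under drought and 208 to 338 in irrigated RAHS-14, and the summed signal of 16 expansin and cellulose synthase probe sets, taken as markers of expanding or fibre tissue, 11500 to 12000 under drought and 11000 to 11600 in irrigated plants. The first 2 of these did not overlap between the groups, and their part in the result was not tested. The D1 probe set and the 16 others all came from the study's accession lists, which can favour a direction within 1 accession. D1 was listed as higher in RAHS-14 under drought, which favours a higher value there.

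In Vagad, 3 aquaporins were higher and 2 lower under drought at an adjusted p under 0.05 alone over 10 arrays, where 29.7% of all probe sets passed, and 0 over 12 arrays, where 3.84% passed. The higher ones were SIP1A, Ghi.6292.2.S1_at (0.57) and Ghi.6492.1.S1_s_at, and the lower ones GhiAffx.10920.2.S1_at and PIP2;4. Both lower ones were listed as higher in irrigated Vagad, which favours a fall. Ghi.6492.1.S1_s_at was listed as higher in Vagad under drought, which favours a rise. Ghi.6292.2.S1_at was listed as higher in irrigated RAHS-14, which favours low irrigated Vagad values and so a rise in Vagad. Without overlap of deposited signals 2 were higher and 4 lower, and 6 overlapped (3, 4 and 5 in normalized signals over 12 arrays), against 29.6% of all probe sets without overlap. None was called with the fold of at least 2 over 12 or 10 arrays, against 3.8% and 10.2% of all; at an unadjusted p under 0.05 over 12 arrays, 2 were higher and 2 lower. The methods' t-test called 0 of 12 after adjustment, against 0.0543% of all. Leaving out Vagad drought plant 3 instead gave 4 calls: Ghi.1478.1.S1_s_at at 1.43 and Ghi.10537.1.S1_at at 1.21, and GraAffx.11285.1.A1_s_at at -2.91 and GhiAffx.10920.1.S1_s_at at -1.13, all with plants 1 and 2 as the Vagad drought group. The log2 ratio of 3′ to 5′ signal was 0.60, -0.71 and 1.95 in Vagad drought plants 1, 2 and 3, against 0.90 to 1.79 in irrigated Vagad. The summed expansin and cellulose synthase signal was 10500 to 14800 in Vagad under drought, against 9290 to 9790 in irrigated Vagad. The 14800 was that of Vagad drought plant 3, the lone Vagad drought array over 10 arrays. The part of either in the result was not tested.

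Between irrigated accessions, the MAS5 signals of the 9 probe sets listed as higher in Vagad were higher there without overlap for 6 and lower for 1, and overlapped for 2; over all probe sets 39.7% did not overlap. Their log2 differences, Vagad minus RAHS-14, were -0.24 to 0.52 over 10 arrays, with a median of 0.18, and -0.20 to 0.49 over 12, with a median of 0.20. The 3 probe sets named PIP2 were among the 6, with 0.52 for GraAffx.11285.1.A1_s_at, 0.51 for GhiAffx.10920.1.S1_s_at and 0.37 for GhiAffx.10920.2.S1_at. The boron and arsenite transporter was the 1 that was lower, at -0.20, and PIP2;4 and SIP1A overlapped. Ghi.6292.2.S1_at, the single probe set listed as higher in irrigated RAHS-14, differed by -0.14 and overlapped. All of these differences were under 2-fold. The summed expansin and cellulose synthase signal also lay apart, at 9290 to 9790 in irrigated Vagad against 11000 to 11600 in irrigated RAHS-14. These marker probe sets were themselves taken from the study's accession lists, so a difference between the accessions is favoured by that choice. It is no check of tissue between the accessions, and its part in the differences was not tested.

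Under drought, 8 probe sets were listed as higher in Vagad. Of these 2, PIP1;4 Ghi.1478.1.S1_s_at and the boron and arsenite transporter, were higher in Vagad without overlap, 1, Ghi.6492.1.S1_s_at, was lower, and 5 overlapped, where 31.2% of all probe sets did not overlap. Their log2 differences were -1.45 to 0.53 over 10 arrays and -1.86 to 1.01 over 12. The transporter differed by 0.49 over 10 arrays and 0.88 over 12, and Ghi.1478.1.S1_s_at by 0.11 and 1.01.

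For 6 probe sets listed in 1 condition only, the accession difference in the other condition was tested. These 6 are apart from the rest because the study's values did not put that difference in its lists, so the count of calls is set by the choice and nothing is read from it against all probe sets. Of these 6 differences, limma called 0 over 12 arrays, where 1 had an unadjusted p under 0.05, and 1 over 10 arrays. GraAffx.9255.1.S1_x_at, a PIP listed only for drought, had 65.9 to 133 in irrigated Vagad, against 439 to 580 in irrigated RAHS-14. The irrigated Vagad arrays had median signals over all probe sets of 64.7, 65.3 and 61.4. Its Vagad signals were thus low, without detection calls, and the size of the fold depends on the low end of the scale. The difference was -2.29 on the log2 scale over 10 arrays (standard error 0.225, limma's adjusted p = 0.000227), or 4.89-fold lower, and was called, where 3.74% of all probe sets were called. Over 12 arrays it was -1.82 (standard error 0.696, limma's adjusted p = 1.0) and was not called, where 0.202% of all were. Leaving out Vagad drought plant 1 alone, it was called at -1.998 (limma's adjusted p = 0.0111). With only the 2 irrigated groups fitted it was -1.82 (limma's adjusted p = 0.00117). Under drought, the contrast it was listed for as higher in Vagad, it had 67.2, 535 and 118 in Vagad against 281 to 372 in RAHS-14, a difference of -1.45 over 10 arrays.

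Ghi.6492.1.S1_s_at, also listed only for drought, was lower in irrigated Vagad, with 1862 to 2008 against 2316 to 2497 in irrigated RAHS-14. Its difference was -0.33 over 10 arrays (standard error 0.0665, limma's adjusted p = 0.0105) and -0.32 over 12 (limma's adjusted p = 1.0), a fold under 2, so it was not called, where 20.4% of all probe sets passed at an adjusted p under 0.05 alone. The 4 listed only for irrigated plants were tested under drought. Over 10 arrays the difference was -0.30 for PIP2;4, -0.29 for Ghi.10537.1.S1_at, 0.16 for GhiAffx.10920.2.S1_at and 0.15 for Ghi.6292.2.S1_at, with limma's adjusted p of 0.0671 to 0.338, and none was called, against 8.52% of all probe sets over 10 arrays and 2.2% over 12. Over 12 arrays it was -0.83 for PIP2;4, 0.35 for GhiAffx.10920.2.S1_at and -0.030 for Ghi.6292.2.S1_at, and -1.20 to -0.21 for PIP2;4 without 1 array. For Ghi.10537.1.S1_at it was 0.61 over 12 arrays, in the other direction, and without Vagad drought plant 3 it was called at 1.05 (limma's adjusted p = 0.00037).

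**Figure D3:**
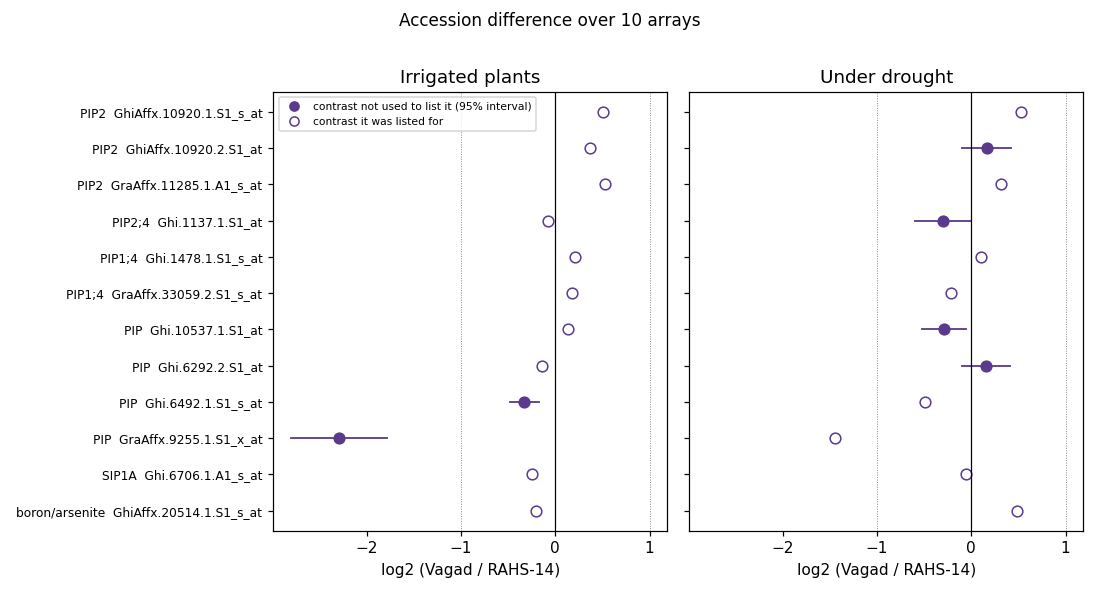
Log2 ratio of Vagad to RAHS-14 (horizontal axis) over 10 arrays, in irrigated plants (left) and under drought (right); filled points with 95% limma intervals are the 6 differences in the condition for which the probe set was not listed, open points are those that did and have no test. GraAffx.9255.1.S1_x_at lies at -2.29 in irrigated plants and -1.45 under drought, outside the dotted lines that mark a fold of 2, and the other 11 lie inside them.

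The tonoplast intrinsic proteins (TIPs), aquaporins of the vacuolar membrane, are the other water channels of these lists: 6 probe sets, of which 5 passed the filter. In RAHS-14, limma called 1 of the 5 over 12 arrays and 4 over 10, each lower under drought, against 0.885% and 8.09% of all probe sets in either direction. TIP2;2 (Ghi.6473.1.S1_at) had 52.0, 34.7 and 43.0 under drought, against 901, 884 and 826 in irrigated RAHS-14, a change of -3.52 over 12 arrays (standard error 0.572, limma's adjusted p = 0.0197). Its groups in Vagad overlapped, with 247, 753 and 232 under drought against 508, 567 and 626 in irrigated Vagad. In Vagad limma called 0 of the 5 over 12 arrays, where 3 had an unadjusted p under 0.05, and over 10 arrays 2, both lower under drought, against 3.8% and 10.2% of all. The TIPs came from the same accession lists, which can favour a direction within 1 accession. Nothing is therefore read from their counts in either accession against all probe sets. Whether TIPs and PIPs differ in their drought response was not tested.

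Across the 10 arrays the 12 probe sets did not move as a block. Of their 66 pairs, 28 had a correlation above 0 and 38 below, 4 above 0.8 and 7 below -0.8. GhiAffx.10920.1.S1_s_at and GraAffx.11285.1.A1_s_at, both PIP2, followed each other most closely (r = 0.961), while both PIP1;4 probe sets had r = 0.536. SIP1A and Ghi.6492.1.S1_s_at, both higher under drought, had r = 0.894, and each ran against PIP2 GhiAffx.10920.2.S1_at, at -0.964 and -0.953. These values are descriptions over 10 plants that share groups and a normalization, and probe sets that bind the same transcripts correlate for that reason alone.

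**Figure D4:**
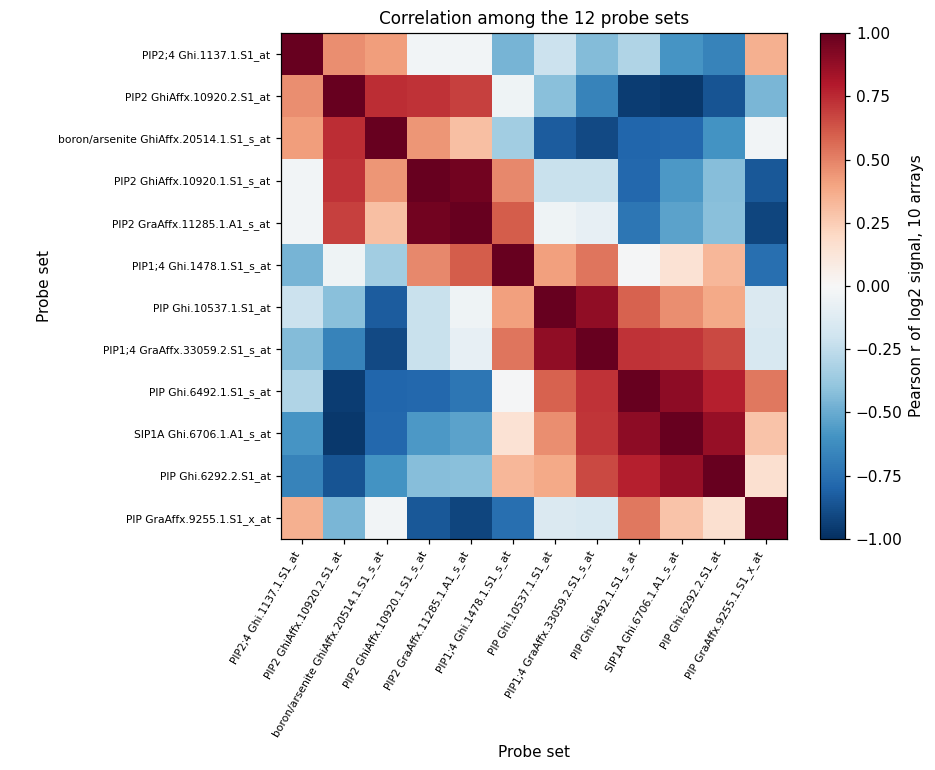
Pearson correlation of log2 signals between each pair of the 12 probe sets over 10 arrays (colour scale from -1 to 1), with probe sets ordered by similarity on both axes. A block of SIP1A, Ghi.6492.1.S1_s_at and Ghi.6292.2.S1_at in red stands against GhiAffx.10920.2.S1_at in blue, and the coefficients lie between -0.964 and 0.961.

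Similar profiles were sought only among 1021 other annotated probe sets of the study's accession lists, not among all probe sets tested. Of these, the profile most like that of PIP2 GhiAffx.10920.2.S1_at over the 10 arrays was a trypsin and protease inhibitor family protein (r = 0.988). SIP1A was most like P5CS2, a proline synthesis enzyme (r = 0.957), and PIP1;4 GraAffx.33059.2.S1_s_at most like chalcone isomerase, a flavonoid enzyme (r = 0.96). Ghi.6292.2.S1_at was most like a galactinol-sucrose galactosyltransferase, which makes raffinose (r = 0.976), and Ghi.6492.1.S1_s_at most like an alanine-glyoxylate aminotransferase (r = 0.978). PIP1;4 Ghi.1478.1.S1_s_at was most like the D2 protein of photosystem II (r = 0.955). Each was the highest of many coefficients over few plants.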

How the data were processed

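The deposited intensity values are MAS5 signals on a linear scale, per the labels, with each array scaled to a trimmed mean of 500.1 and no detection calls. Array medians spanned 2.50 on the log2 scale, so quantile normalization was applied. A floor of 17.2 (10.3 for the 10 arrays), from the 20th percentile of the arrays, was set before log2. Of 24132 probe sets, 103 controls were dropped, and the rest were tested where 3 or more arrays exceeded the array median. The 4 group means were fitted with limma 3.58.1 in R 4.3.3, with Benjamini-Hochberg adjustment. The script was tested on simulated data for the RAHS-14 drought response. These were 12 arrays, with 3 in every group, drawn with the means and the spread (0.131) of the 10-array fit (12613 probe sets). Of changes of 1.5 on the log2 scale 95 of 100 were recovered, and of changes of 2, 99 of 100, with 5 false calls. The setting matches neither the fit over 10 arrays nor the wider spread over 12, so it does not give their recovery. Figures were drawn with matplotlib 3.10.9 and Python 3.11.15.

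Every probe set that met the rule is named. The members, lists and tests were chosen with earlier results of these data known, and counts at an adjusted p alone were added after the data were seen. For arrays there is no depth, and their number limits the precision. The study's own fold changes and its transcriptome libraries are not used here. No platform symbol named an aquaporin, so none was added from there.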

Additional observations from a re-analysis of the deposited data

How the results depend on the processing

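No aquaporin was called for the drought response in RAHS-14 under any of the planned settings or without any 1 array. For the drought response in Vagad, median alignment, under which all probe sets together had a median of -1.83, gave 5 calls, all lower; the signals as deposited gave 1, and fits without 1 array gave 0 to 4, with 4 only without Vagad drought plant 3. For the mean drought response, fits without 1 array gave 0 to 1, with GraAffx.11285.1.A1_s_at called at -1.46 without Vagad drought plant 3. At an adjusted p alone the mean response gave 1, and over 10 arrays 7, with 7 for RAHS-14 and 5 for Vagad. For the 6 accession differences in the condition not listed, calls were 0 over 12 arrays and 1 each over 10 arrays, with median alignment, array weights, the 2 groups alone and the methods' t-test (unadjusted or adjusted), 2 over 10 arrays at an adjusted p alone, and 0 to 1 without 1 array (1 without Vagad drought plant 1 or 3).

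Directions turned as follows, in log2 values. Over 10 arrays, the Vagad response was -0.13 for Ghi.10537.1.S1_at, -0.068 for GhiAffx.20514.1.S1_s_at and 0.21 for GraAffx.9255.1.S1_x_at. With median alignment it was -1.02 for Ghi.10537.1.S1_at, -1.32 for Ghi.6292.2.S1_at, -1.59 for Ghi.6492.1.S1_s_at, -0.70 for Ghi.6706.1.A1_s_at, -1.72 for GhiAffx.20514.1.S1_s_at and -0.90 for GraAffx.33059.2.S1_s_at, and the mean response was -0.36 for Ghi.10537.1.S1_at, -0.49 for Ghi.6292.2.S1_at, -0.53 for Ghi.6492.1.S1_s_at and -0.19 for GraAffx.33059.2.S1_s_at. With signals as deposited, the Vagad response was -0.071 for GhiAffx.20514.1.S1_s_at and 0.72 for GraAffx.9255.1.S1_x_at, whose mean response was 0.029. Without 1 array, the Vagad response of GraAffx.9255.1.S1_x_at was -1.27 to 0.50 (0.50 without Vagad drought plant 1), and the RAHS-14 response of GraAffx.11285.1.A1_s_at -0.045 to 0.025. The accession difference under drought was -0.29 for Ghi.10537.1.S1_at over 10 arrays and -0.97 with median alignment, 0.15 for Ghi.6292.2.S1_at over 10 arrays, 0.052 with array weights and -0.13 to 0.17 without 1 array, and -1.46 for GhiAffx.10920.2.S1_at with median alignment. The causes were not tested. Same-numbered arrays did not deviate together, since residuals correlated above 0.1 in 0 of 18 such pairs, and with a replicate block 0 aquaporins were called in each of the 4 results. The limits are 3 plants a group, a lone Vagad drought array over 10 arrays, and MAS5 signals without detection calls.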
